A study of Mus musculus with 28 samples.

Results

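The clustered protocadherin genes were examined in the amygdala of female mice that drank water or alcohol. Members were the genes whose GENCODE M21 symbol starts with Pcdha, Pcdhb, Pcdhga, Pcdhgb or Pcdhgc followed by a number or c, that were listed in the count tables of both batches, and that had a mean of at least 10 counts over all mice. Of 58 genes with such a symbol, 57 met these conditions, out of 16266 genes kept in all: 14 of the α cluster, 21 of the β cluster and 22 of the γ cluster. The gene just outside the count minimum was *Pcdhb1*, with a mean of 8.0 counts, and the gene just inside was *Pcdhb2*, with 34.75.

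RNA-seq counts came from micropunches that contained the central and basolateral amygdala of 28 adult female C57BL6/J mice, single-housed for the drinking period. The Water group (10 mice) never had access to alcohol, the Acute Drinking group (9 mice) had a single access to 20% alcohol, and the Chronic Drinking group (9 mice) had 20% alcohol every other day for a month. The first batch held 4 Water, 4 Acute Drinking and 3 Chronic Drinking mice, and the second batch held 6, 5 and 6. Each library came from 1 mouse.

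Clustered protocadherins are cadherin-type adhesion proteins of the neuronal surface, encoded by neighbouring arrays of genes. In the α and γ arrays each variable first exon has its own promoter and is spliced to constant exons that encode a shared intracellular end, whereas most β genes are a single exon with no constant part. Single neurons use a small, largely random choice of the variable promoters, helped by CTCF and cohesin, while the so-called C-type genes at the ends of the α and γ arrays are used more broadly, and matching of identical isoforms lets a neuron tell its own branches from those of others. In bulk tissue, fewer cells of a type and less RNA per cell cannot be told apart.

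All members lie on the plus strand of chromosome 18 in GRCm38. The α genes span 36930184 to 37187661, the β genes 37264938 to 37524479 and the γ genes 37661793 to 37841873. The annotation holds 2 entries with the symbol *Pcdha11*, ENSMUSG00000007440 and ENSMUSG00000102206, which are kept apart here as the first and the second entry. Exons shared with other members of the cluster made up 38.0% to 54.9% of the exon bases of an α gene and 27.8% to 66.8% of those of a γ gene. Reads from the shared exons cannot be traced to 1 gene, so a value of an α or γ gene depends on how the quantification divided them. Among the β genes such overlap was limited to *Pcdhb21* (9.67% of its exon bases) and *Pcdhb22* (6.88%). Readthrough entries on the same strand, such as *Gm37013* and *Gm42416*, also cover exons of every γ gene.

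Total counts ranged from 20004380 to 22569562 per mouse. Pairs of mice of 1 group and batch differed by 3.90 to 20.97 times the squared difference that counting alone gives, so no library was counted as a copy of another. Neuronal markers (10 of 10 listed), central amygdala markers (6 of 6) and pallial excitatory markers (8 of 8) were all measured. The central amygdala score, a mean log2 level relative to the batch mean, averaged -0.11 in Water (-0.46 to 0.12), 0.13 in Acute Drinking (-0.23 to 0.44) and -0.0089 in Chronic Drinking mice (-0.54 to 0.29). The pallial score averaged 0.048, -0.073 and 0.020, and the neuronal score -0.0097, -0.0037 and 0.014, again with overlapping ranges. Markers of choroid plexus and ependyma (8 of 8 measured) varied most, with scores from -2.0 to 2.54 in Water, from -2.25 to 2.22 in Acute Drinking and from -2.64 to 2.41 in Chronic Drinking mice. Striatal markers (8 of 8) ranged from -1.23 to 0.90, from -0.50 to 0.67 and from -0.80 to 0.43. The part of tissue make-up in the differences given below was not tested. The GC slope, the change of a mouse's log2 level for each 10% of gene GC content relative to the other mice, averaged -0.028 in Water, 0.0029 in Acute Drinking and 0.028 in Chronic Drinking mice. The ranges overlapped (-0.116 to 0.037, -0.022 to 0.052 and -0.020 to 0.073). Without 1 Water mouse (number 4, the lowest of all) the Water mean was -0.018, and the Acute Drinking mean lay between -0.0033 and 0.0060 without any 1 of its mice.

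The γ cluster carried 72.2% of all counts of the members, the α cluster 17.6% and the β cluster 10.2%. The 5 C-type genes together carried 45.5%. Levels between genes are given as CPM, counts scaled to the same library size, per kilobase of exon (CPM per kb). On that scale the median gene stood at 5.07 in the γ cluster, 1.80 in the α cluster and 1.11 in the β cluster, against 4.04 over all genes kept.

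*Pcdhgc5* had the highest level of all members, with 30.5 ± 2.47 CPM per kb in Water (SD, n = 10), 30.5 ± 2.31 in Acute Drinking and 30.4 ± 2.26 in Chronic Drinking mice (n = 9 each). It stood at percentile 91.3 of all genes kept and above the next member, *Pcdhgc3*, in 28 of 28 mice. *Pcdhgc3* averaged 21.4 CPM per kb over all mice, *Pcdhgc4* 19.8 and *Pcdhac2* 14.7. The order of *Pcdhgc3* and *Pcdhgc4* turned with the batch. *Pcdhgc3* was above *Pcdhgc4* in 1 of 11 mice of the first batch (means 20.8 and 25.5) and in 16 of 17 of the second (21.7 and 16.1), and *Pcdhgc4* was above *Pcdhac2* in 11 of 11 and 11 of 17. *Pcdhac2* was above the fifth gene, *Pcdhga11* (8.22), in 28 of 28 mice, by a mean log2 ratio of 0.84 ± 0.13 (SD). The remaining C-type gene, *Pcdhac1*, ranked 35 of 57 with 1.57, beside the α genes with ordinary variable exons (median 1.80). Background knowledge ties *Pcdhac2* to the even spacing of serotonergic axons and *Pcdhgc4* to the survival of inhibitory interneurons.

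Below these genes the levels formed a gradual series. Among the γA genes levels ran from 2.14 (*Pcdhga1*) to 8.22 (*Pcdhga11*), and among the γB genes from 0.890 (*Pcdhgb8*, annotated as a polymorphic pseudogene) to 6.25 (*Pcdhgb6*). In the β cluster *Pcdhb9* was highest, with 3.68 ± 0.36 in Water, 3.56 ± 0.28 in Acute Drinking and 3.45 ± 0.43 in Chronic Drinking mice, and *Pcdhb21* was lowest, with 0.49 ± 0.11, 0.43 ± 0.077 and 0.43 ± 0.13. The lowest of all members was *Pcdha8*, with 0.35 ± 0.22, 0.36 ± 0.15 and 0.34 ± 0.079. Its Water mean included 1 mouse with 107 normalized counts, where the other 9 Water mice had 24.0 to 38.1. Most neighbours in the order of levels differed by less than their spread between mice. For instance *Pcdhga7* was above *Pcdhgb6* in 13 of 28 mice, and *Pcdhb20* above *Pcdhb12* in 14.

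**Figure D1:**
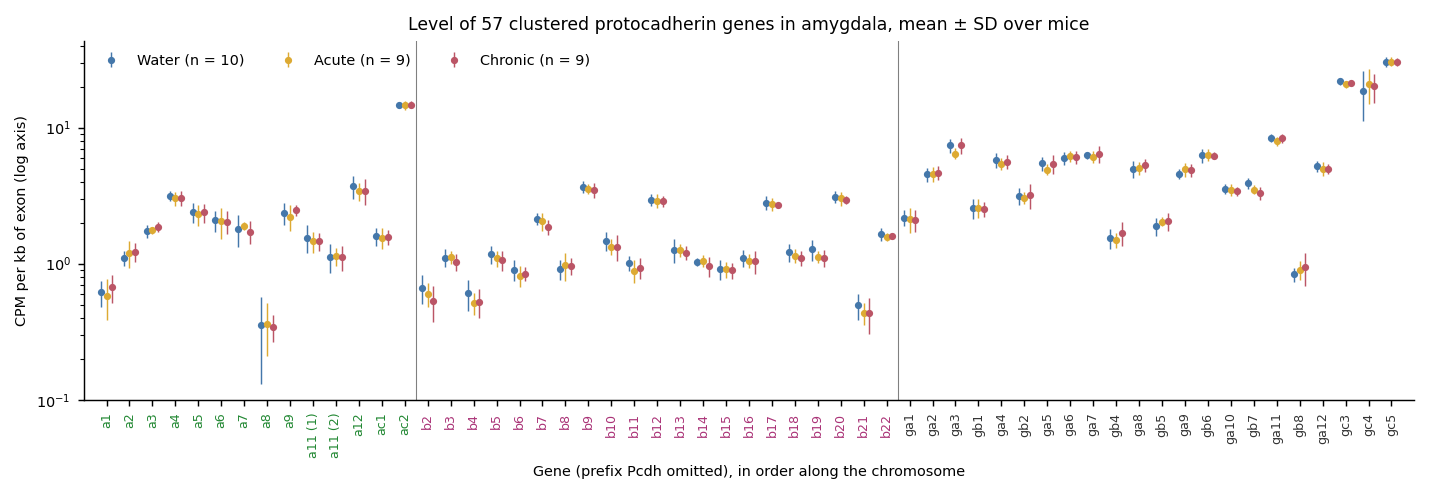
Level of each of the 57 members, in CPM per kb of exon on a log axis, in the order of the genes along the chromosome (α, β and γ separated by vertical lines). Points are group means and bars SD over 10 Water, 9 Acute and 9 Chronic mice. The 3 γ C-type genes at the right end and Pcdhac2 at the end of the α cluster stand above all others, and the 3 groups lie close together at nearly every gene.

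Whether drinking was accompanied by a difference in these genes was asked first for Acute Drinking against Water, over all 28 mice with batch as a covariate. With edgeR's quasi-likelihood test and adjustment over all 16266 genes, 0 of the 57 members passed the threshold of 0.05, as did 0% of all genes. At an unadjusted p under 0.05 there were 4 members (9.52% of all genes), of which 3 were lower and 1 was higher, where 4.45% of all genes were lower and 5.07% higher. A log2 fold change below 0 was found in 37 of the 57 members, against 49.4% of all genes. The median over members was -0.04, against 0.00 over all genes. Within the first batch 32 of the 57 members were below 0 (50.4% of all genes) and in the second 36 (49.5%), with 22 below 0 in both, against 28.6% of all genes. An unadjusted p under 0.05 was reached by 2 members in the first batch alone (7.21% of all genes) and by 5 in the second (5%).

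*Pcdhga3*, a γA gene, had the smallest p of the Acute Drinking comparison. In the first batch its normalized counts were 629, 623, 699.5 and 717 in the 4 Water mice and 528, 609, 572 and 602 in the 4 Acute Drinking mice, so that these groups did not overlap. In the second batch Water mice had 634, 769.7 and 870.0 (lowest, median, highest) and the 5 Acute Drinking mice 676.5, 679, 645, 657 and 699.0, within the range of Water. Over both batches the log2 fold change was -0.19 ± 0.057 (SE), with p = 0.0025 before and 0.38 after adjustment, and -0.21 and -0.18 in the batches. An exact permutation test within batches gave 0.0057 (2-sided, 32340 regroupings), and 9 of 9 Acute Drinking mice lay below the Water mean of their batch. *Pcdhga3* was the only member with no overlap between these groups in the first batch, where 1.84% of all genes were lower with no overlap. In the second batch there was none (0.215%). With no overlap and higher there were 0 members in either batch (2.25% and 0.203% of all genes).

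*Pcdhga5* and *Pcdhgb7* were the other members with an unadjusted p under 0.05 and lower values. *Pcdhga5* had 420, 536 and 608 normalized counts in Water (lowest, median, highest) and 411, 468 and 537 in Acute Drinking mice. The groups overlapped, and the log2 fold change was -0.14 ± 0.064, adjusted p = 0.50, with -0.07 in the first and -0.20 in the second batch. *Pcdhgb7* had 332, 383 and 437 in Water and 307, 338 and 402 in Acute Drinking mice, again with overlap, for -0.15 ± 0.059, adjusted p = 0.47.

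In the other direction *Pcdhga9* came first. Its normalized counts were 471, 517 and 633 in Water and 445, 562 and 659 in Acute Drinking mice, for a log2 fold change of 0.12 ± 0.053, adjusted p = 0.50. The Acute Drinking range enclosed that of Water, and the batches gave 0.04 and 0.17. Next were *Pcdhgb5* with 0.12 ± 0.082 (adjusted p = 0.66) and *Pcdhgc4* with 0.17 ± 0.13 (adjusted p = 0.70), which was 0.10 without 1 Water mouse (number 4).

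Chronic Drinking was compared with Water in the same fit. Again 0 of the 57 members passed the adjusted threshold, where 0.0184% of all genes (3 of 16266) did. At an unadjusted p under 0.05, 4 members were lower and 0 higher, against 5.65% and 4.81% of all genes (10.5% in all). Such a p was reached by 2 members in the first batch alone (3.52% of all genes) and by 7 in the second (13.4%). A log2 fold change below 0 was found in 43 of the 57 members, where 49% of all genes were below 0. By batch 35 members were below 0 in the first (50.8% of all genes) and 36 in the second (49.5%).

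The share below 0 was highest in the β cluster. In Chronic Drinking mice 20 of the 21 β genes had a log2 fold change below 0, with a median of -0.11 and a range from -0.34 to 0.08, and the exception was *Pcdhb8*. The α cluster had 9 of 14 below 0 (median -0.03) and the γ cluster 14 of 22 (median -0.01). The α count was 5 with limma-voom and with a replicate block and GC content and length offsets, and both medians turned sign without single mice. In Acute Drinking mice the corresponding counts were 16 of 21 β genes (median -0.05), 9 of 14 α genes and 12 of 22 γ genes. Both comparisons use the same Water mice, so the side by side counts are not independent of each other.

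By batch, 14 of the 21 β genes were below 0 for Chronic Drinking in the first batch (median -0.08) and 19 in the second (median -0.14), and 13 were below 0 in both. Of all genes 26% were below 0 in both batches. For Acute Drinking the β genes divided as 11 of 21 in the first batch (median -0.01) and 16 of 21 in the second (median -0.09), and 8 were below 0 in both. The median standard error of a β gene's log2 fold change was 0.094 in both comparisons.

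**Figure D2:**
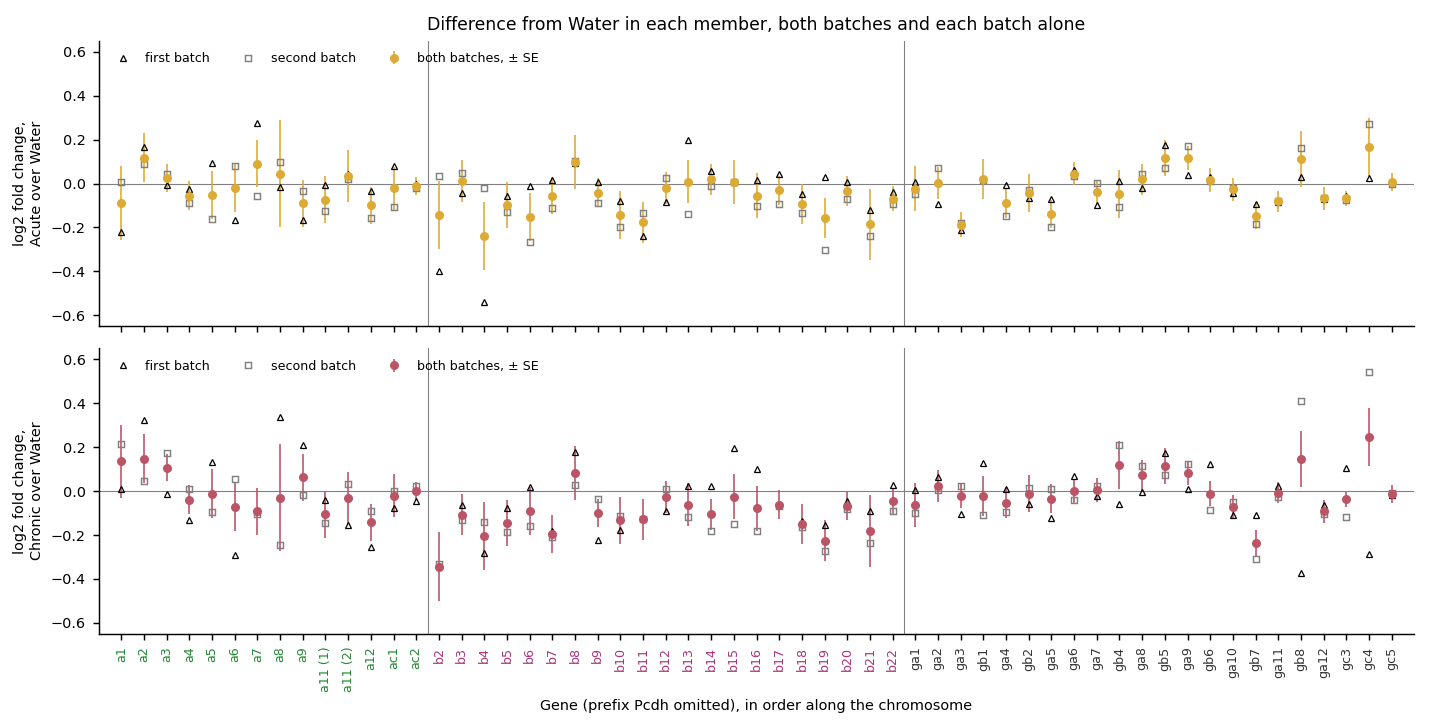
log2 fold change of each member, Acute over Water (top) and Chronic over Water (bottom). Filled points are fits over both batches with bars of 1 SE, open triangles the first batch alone and open squares the second batch alone, and vertical lines separate the α, β and γ clusters. In the lower panel 20 of 21 β genes lie below 0, and Pcdhgb8 and Pcdhgc4 lie on opposite sides of 0 in the 2 batches.

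The summed level of a cluster does not depend on how reads were divided among its own members, although reads could still be divided between members and other entries that cover their exons. The β sum was 129.6 ± 7.67 CPM in Water (SD, n = 10), 124 ± 4.92 in Acute Drinking and 121 ± 5.84 in Chronic Drinking mice (n = 9 each), a difference from Water of -4.16% and -6.71%. First-batch β sums were 130.1, 138, 119 and 116 in the Water mice and 123, 118 and 119 in the Chronic Drinking mice, inside the Water range. In the second batch Water mice had 124 to 137 and Chronic Drinking mice 114 to 133, and the ranges overlapped. The batch differences for Chronic Drinking were -4.60% and -8.17%, and for Acute Drinking -1.03% and -6.17%.

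The sums of the other clusters were closer together. The α sum was 216 ± 11.2 CPM in Water, 212 ± 14.1 in Acute Drinking and 215 ± 13.4 in Chronic Drinking mice. The γ sum was 883 ± 14.1, 878 ± 21.7 and 887 ± 26.7. For γ the Chronic Drinking difference had opposite signs in the batches, -2.62% and 1.96%. No test compared the groups on these sums.

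**Figure D3:**
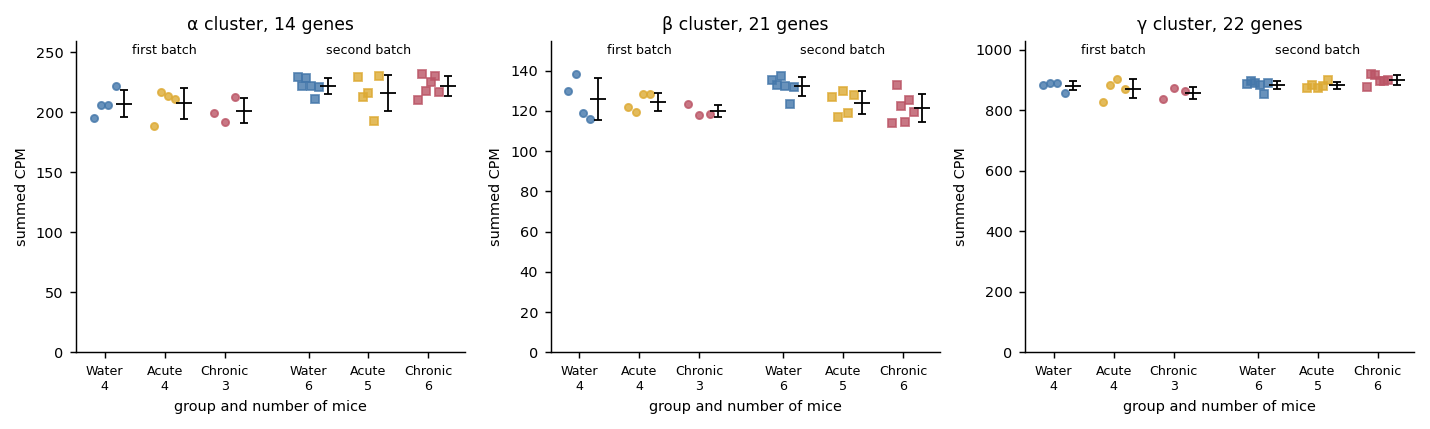
Summed CPM of the α, β and γ members in each mouse, by group and batch (circles, first batch; squares, second batch; numbers of mice under each group). Black bars give the mean ± SD. The β sums of Chronic mice average 121 against 129.6 in Water with overlapping ranges, and the α and γ sums of the 3 groups overlap widely.

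The β genes are poorer in GC (median 46.6%, all genes 49.9%, γ genes 52.5%), and the group means of the GC slope are given above. After offsets that removed each mouse's trend on GC content and length, 20 of 21 β genes were below 0 in Chronic Drinking mice, and their median was -0.08 in place of -0.11. The part of GC content in the β values was not tested otherwise.

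Among single β genes the smallest p values of the Chronic Drinking comparison belonged to *Pcdhb19*, *Pcdhb7* and *Pcdhb2*. *Pcdhb19* had 133, 202 and 227 normalized counts in Water (lowest, median, highest) and 124, 168 and 198 in Chronic Drinking mice. The groups overlapped, with 8 of 9 Chronic Drinking mice below the Water mean of their batch. The log2 fold change was -0.23 ± 0.092, p = 0.020 before and 0.37 after adjustment, with -0.15 and -0.27 in the batches and an exact permutation p of 0.031.

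*Pcdhb7* had 136.5, 151 and 179 in Water and 102, 141 and 152 in Chronic Drinking mice, for -0.20 ± 0.087 (adjusted p = 0.42). The batches gave -0.18 and -0.21. *Pcdhb2*, with few counts (29 to 55 in Water, 19 to 44 in Chronic Drinking mice), had -0.34 ± 0.16 (adjusted p = 0.44), with -0.34 and -0.33 in the batches.

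*Pcdhgb7* had the smallest p of any member in any comparison. In the first batch its normalized counts were 394, 357, 332 and 335 in the Water mice and 386, 318 and 283 in the Chronic Drinking mice, with overlap. In the second batch Water mice had 352, 396 and 437 (lowest, median, highest) and Chronic Drinking mice 269, 328 and 341. There the groups did not overlap, as for *Pcdhgc3* and no other member, where 0.387% of all genes were lower with no overlap. No member was higher with no overlap in that batch (0.387% of all genes), and none was lower or higher with no overlap in the first (2.32% and 2.24%). The log2 fold change was -0.23 ± 0.059, with p = 4.4e-04 before and 0.18 after adjustment, and the exact permutation p was 0.0023. The batches gave -0.11 and -0.31, a difference that did not pass the interaction test (p = 0.11, adjusted p = 0.85).

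The call for *Pcdhgb7* depended on the tool. With DESeq2 and batch as a covariate its adjusted p was 0.049, where 0.221% of all genes were called, and with ComBat-seq followed by DESeq2 it was 0.024, where 0.596% were called. The study used this last route on the same mice and listed *Pcdhgb7* for Chronic Drinking, so that call is not a separate result. *Pcdhgb7* also passed in edgeR without 1 Chronic Drinking mouse of the first batch (number 37, the highest of the 3 Chronic Drinking mice there), with an adjusted p of 0.047, where 0.0307% of all genes were called. Over the 14 settings other than leaving out mice its adjusted p ran from 0.024 to 1.0. An antisense gene, *Gm26672*, covers part of its exons, and 45.0% of its exon bases are shared with other γ genes, so part of its reads cannot be placed with certainty.

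Members on the other side of the Chronic Drinking comparison had larger p values. *Pcdhgc4* had a log2 fold change of 0.25 ± 0.13 (adjusted p = 0.52), *Pcdha3* 0.11 ± 0.062 (adjusted p = 0.56) and *Pcdhga9* 0.08 ± 0.053 (adjusted p = 0.62). *Pcdha3* had 157, 194 and 215 normalized counts in Water and 175, 210.1 and 231 in Chronic Drinking mice, and its batches gave -0.01 and 0.18.

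**Figure D4:**
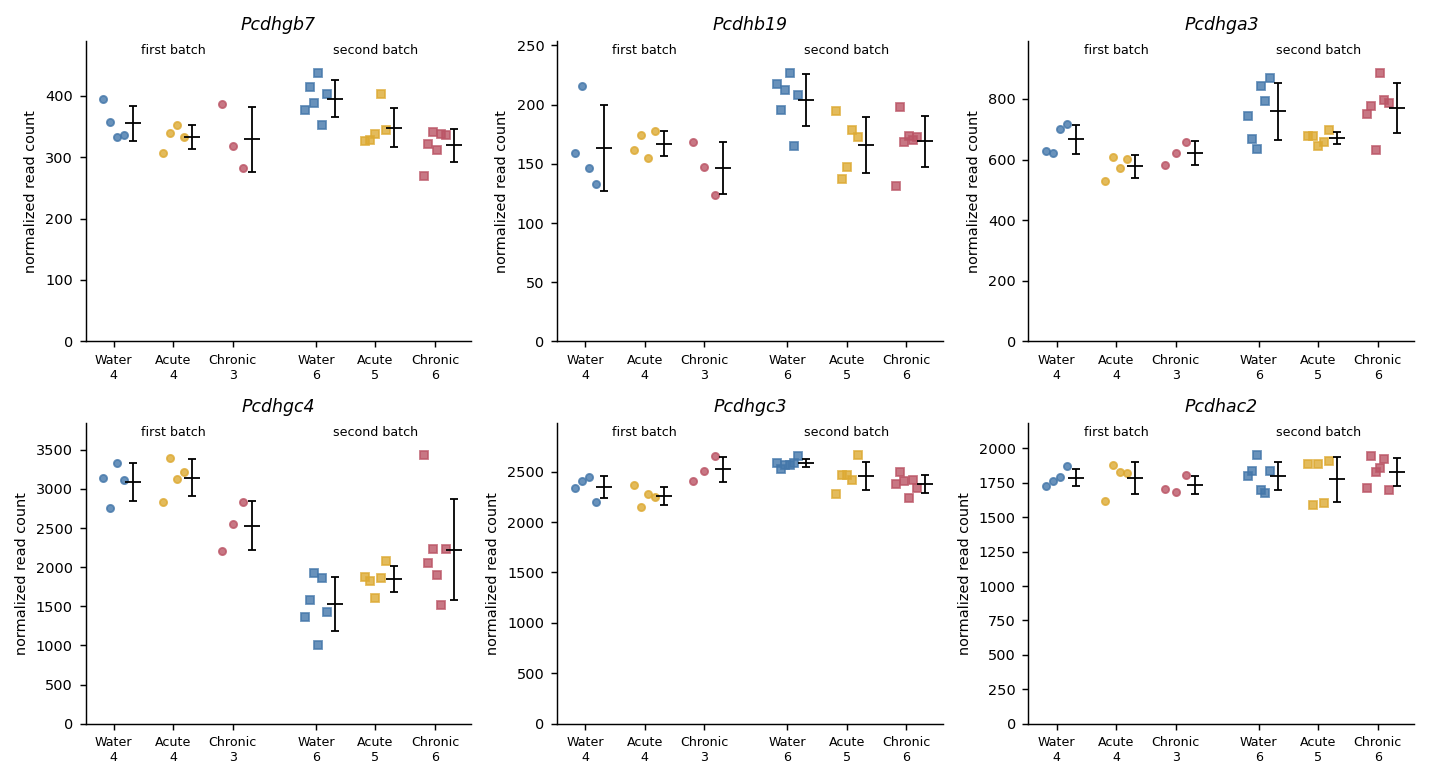
Normalized read counts of 6 members in each mouse, by group and batch (circles, first batch; squares, second batch; numbers of mice under each group), with mean ± SD in black. Chronic and Water mice do not overlap for Pcdhgb7 and Pcdhgc3 in the second batch, all second-batch Water values of Pcdhgc4 lie below all first-batch values, and the ranges of Pcdhac2 overlap in all groups.

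Chronic Drinking was then set against Acute Drinking. Again 0 of the 57 members passed the adjusted threshold, as did 0% of all genes. *Pcdhga3* was the 1 member with an unadjusted p under 0.05 (1 higher and 0 lower, against 1.95% and 2.5% of all genes, 4.44% in all). A log2 fold change below 0 was found in 31 of the 57 members (50.6% of all genes). *Pcdhga3* had 528, 645 and 699 normalized counts in Acute Drinking and 581, 752 and 886 in Chronic Drinking mice, which overlapped, for a log2 fold change of 0.17 ± 0.058 (adjusted p = 0.998, exact permutation p = 0.0094). Since the Acute Drinking mice also enter the first comparison, the 2 results for *Pcdhga3* rest on the same low values. The next members were *Pcdhga5* (0.10 ± 0.066) and *Pcdhga11* (0.07 ± 0.049) above, and *Pcdhb14* (-0.12 ± 0.073), *Pcdha7* (-0.18 ± 0.11) and *Pcdhb7* (-0.14 ± 0.089) below, all with an adjusted p of 0.998.

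Within the first batch alone, *Pcdha9* and *Pcdhgc3* were higher and *Pcdhb9* lower in Chronic than in Acute Drinking mice with no overlap (2.55% and 3.66% of all genes). None of the members was so in the second batch (0.178% and 0.221%). In the batches 31 and 28 of the 57 members were below 0 (50.3% and 49.9% of all genes), 15 of them in both (24.9%). An unadjusted p under 0.05 was reached by 5 members in the first batch alone (4.58% of all genes) and by 3 in the second (3.99%).

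The C-type genes held members whose groups lay close together and the member with the largest difference between batches. *Pcdhac2* had 1678, 1794 and 1951 normalized counts in Water (lowest, median, highest), 1585 to 1912 in Acute Drinking and 1684 to 1948 in Chronic Drinking mice. All groups overlapped, with log2 fold changes of -0.01 ± 0.040 and 0.00 ± 0.040. *Pcdhgc5* had 4260, 4885 and 5302 in Water, 3981 to 5152 in Acute Drinking and 4414 to 5354 in Chronic Drinking mice, with 0.01 ± 0.040 and -0.01 ± 0.040. *Pcdhac1* had 148, 173 and 227 in Water, 129.8 to 220.5 and 133 to 203 in the drinking groups, with -0.02 ± 0.098 in both comparisons. For these 3 genes the standard error bounds the differences that could have been seen, and it was wider for *Pcdhac1* with its lower count.

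*Pcdhgc4* differed most between batches of all members. First-batch Water mice had 3139.8, 2753, 3335 and 3110.3 normalized counts and second-batch Water mice 1004, 1508 and 1928 (lowest, median, highest), with no overlap. The log2 difference of the second from the first batch was -0.69 over all groups, adjusted p = 8.7e-06. Of all genes, 46.2% differed between the batches with an adjusted p under 0.05 (22% higher and 24.3% lower in the second). Among the members 16 were higher in the second batch (10 γ, 5 α and 1 β gene) and *Pcdhgc4* alone was lower. The largest of the 16 were *Pcdha12* with 0.39 and *Pcdha6* with 0.33. Batch here is the label of the cohort, and cohort, tissue collection and sequencing cannot be told apart.

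The direction of *Pcdhgc4* in Chronic Drinking mice turned with the batch. Chronic Drinking mice of the first batch had 2202.5, 2553 and 2836, for a log2 fold change of -0.29 against Water. In the second batch they had 1513, 2138 and 3432 (lowest, median, highest), for 0.54. The highest value belonged to 1 mouse (number 1), and the next in the group was 2229. The interaction of batch with Chronic Drinking was 0.83 on the log2 scale, p = 0.0015 before and 0.72 after adjustment over all genes. Without that mouse the interaction was 0.66, and the fold change over both batches was 0.12 in place of 0.25.

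*Pcdhgc3* showed the mirror pattern. First-batch Chronic Drinking mice had 2412, 2507 and 2657 normalized counts against 2336.5, 2407, 2449 and 2197 in Water, a log2 fold change of 0.10. Second-batch Chronic Drinking mice had 2235, 2394 and 2496 (lowest, median, highest) against 2530.1, 2577 and 2658 in Water, with no overlap and a log2 fold change of -0.12. Over both batches *Pcdhgc3* had a log2 fold change of -0.07 for Acute Drinking (adjusted p = 0.56, exact permutation p = 0.026), and 7 of 9 mice lay below the Water mean of their batch. For Chronic Drinking it had -0.04 (exact permutation p = 0.31). The interaction was -0.22, p = 8.6e-04 before and 0.72 after adjustment. *Pcdhgb8*, at 71 to 97 normalized counts in first-batch and 62 to 89 in second-batch Water mice against 50 to 83 and 77 to 118 in Chronic Drinking mice, was the third member with an unadjusted p under 0.05 for this interaction, from -0.37 in the first to 0.41 in the second batch (p = 0.0019, adjusted p = 0.72). By comparison 6.15% of all genes had an unadjusted p under 0.05 for it, 0 members had one for the interaction with Acute Drinking (4.13% of all genes), and 0 members passed the adjusted threshold in either (0.00615% and 0 of all genes).

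Variation between mice of 1 group and batch was small for γ and larger for α genes. The SD of log2 CPM within group and batch had a median of 0.14 over γ genes, 0.20 over β genes and 0.25 over α genes. Relative to counting error alone, the spread was 1.46 times as wide for the median β gene, 2.31 times for α and 2.24 times for γ, up to 8.91 for the most variable γ gene. Members did not vary together as 1 group. Over 28 mice, the correlation of the deviations of 2 genes from their group and batch means had a median of 0.083 over the 210 pairs of β genes, 0.079 over the 91 α pairs and 0.062 over the 231 γ pairs. *Pcdhac1* and *Pcdhac2* were the most alike pair within the α cluster (r = 0.64).

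For the C-type genes the deviations from group and batch means were set against 10 marker scores and the GC slope, 55 relations in all over 28 mice, with permutation tests and adjustment over the 55. *Pcdhac2* was related to the pallial excitatory score with r = 0.67 (adjusted permutation p = 0.012) and rho = 0.65 (adjusted p = 0.019). Without the 2 mice farthest from the median score r was 0.54, and r was 0.86 in the first and 0.61 in the second batch. It was related in the other direction to the central amygdala score, with r = -0.62 (adjusted permutation p = 0.031), -0.56 without the 2 farthest mice and -0.52 and -0.66 in the batches. Its rho of -0.63 had an adjusted permutation p of 0.049. With the neuronal score, which shares *Slc17a7* with the pallial list, r was 0.60 (adjusted permutation p = 0.027), but the rank correlation did not pass (adjusted p = 0.0502).

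*Pcdhgc4* was related to the GC slope, with r = 0.61 (adjusted permutation p = 0.031), but the rank correlation of 0.45 did not pass (adjusted p = 0.25), and r was 0.49 without the 2 farthest mice. *Pcdhgc5* was related to the choroid plexus score with r = -0.54 (adjusted permutation p = 0.031), where the rank correlation of -0.50 did not pass (adjusted p = 0.13). For this pair r was -0.33 without the 2 farthest mice, and -0.79 in the first and -0.51 in the second batch. *Pcdhac1* and *Pcdhgc3* had no relation that passed.

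The gene whose deviations were most like those of each C-type gene and of *Pcdhgb7* was looked up over 16265 other genes, as a description with no test. These genes were picked for their likeness after the values were seen. For *Pcdhac2* it was *Kit*, a receptor tyrosine kinase, with r = 0.91 over 28 mice and 0.94 and 0.91 in the batches, followed by *Bcl2l2* with 0.87. For *Pcdhgc5* it was *Lmtk2*, a membrane kinase, with 0.89, for *Pcdhgb7* it was *Myh10*, a non-muscle myosin heavy chain, with 0.88, and for *Pcdhgc4* it was *Aph1a*, a γ-secretase subunit, with 0.80. The last pair had r = 0.49 in the first and 0.84 in the second batch and a rank correlation of 0.50. *Pcdhac1* was most like *Sgip1* (0.80) and *Pcdhgc3* most like *Etfdh* (0.70). Points of 1 mouse share their library, tissue punch and base composition in every such pair.

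**Figure D5:**
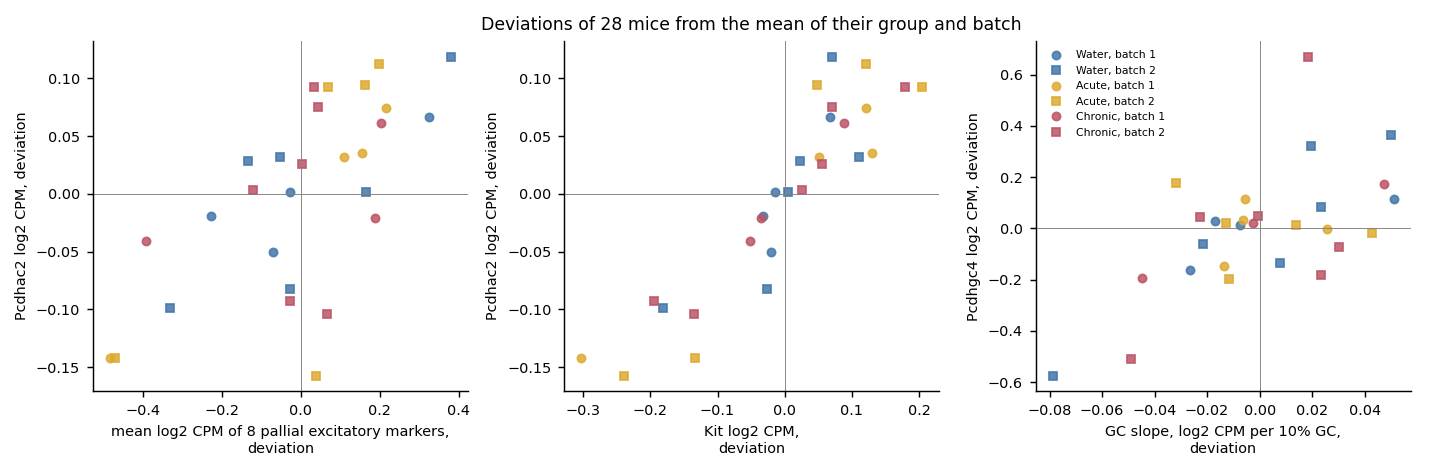
Deviations of 28 mice from the mean of their group and batch (colours, groups; circles, first batch; squares, second batch). Left, Pcdhac2 against the pallial excitatory score (r = 0.67); middle, Pcdhac2 against Kit (r = 0.91, picked as the most alike of 16265 genes); right, Pcdhgc4 against the GC slope (r = 0.61), where 1 Chronic mouse lies apart at the top.

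Related and connected genes were counted beside the members. Of 21 other protocadherins and large atypical cadherins, 20 were measured, and 0 passed the adjusted threshold in any comparison. For Acute Drinking 17 of the 20 had a log2 fold change below 0 and for Chronic Drinking 15, against 49.4% and 49% of all genes. At an unadjusted p under 0.05, 8 were lower in Acute Drinking and 2 in Chronic Drinking mice, and 0 were higher in either. Of all genes 4.45% and 5.65% were lower and 5.07% and 4.81% higher at such a p. The smallest p belonged to *Pcdh17*, a non-clustered protocadherin, with 3179.7 ± 243 normalized counts in Water, 2875 ± 160 in Acute Drinking and 2899 ± 233 in Chronic Drinking mice, and log2 fold changes of -0.14 ± 0.046 (adjusted p = 0.40) and -0.13 ± 0.046 (adjusted p = 0.28). On the other side were *Pcdh11x* in Acute Drinking (0.18 ± 0.12, adjusted p = 0.64) and *Pcdh8* in Chronic Drinking mice (0.13 ± 0.075, adjusted p = 0.56). Between Chronic and Acute Drinking mice the smallest p on the higher side belonged to *Pcdh1* (0.17 ± 0.068, adjusted p = 0.998), and on the lower side *Fat3* had -0.13 ± 0.13 (adjusted p = 0.999).

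Of 26 listed factors that act on the protocadherin promoters or their chromatin, all were measured and 0 passed in any comparison. A log2 fold change below 0 was found in 23 of the 26 for Acute Drinking and in 24 for Chronic Drinking, against 49.4% and 49% of all genes. Their medians were -0.05 and -0.06, and at an unadjusted p under 0.05 there were 4 lower and 0 higher, and 8 lower and 1 higher, where 4.45% and 5.65% of all genes were lower and 5.07% and 4.81% higher. *Ctcf*, which binds the promoters, had -0.05 ± 0.026 (adjusted p = 0.57) and -0.03 ± 0.026 (adjusted p = 0.69). *Smchd1*, a silencing factor of the clusters, had -0.08 ± 0.038 in both (adjusted p = 0.53 and 0.44). The smallest p values were those of *Tet3*, which oxidizes methylated cytosine, in Acute Drinking mice (-0.15 ± 0.047, adjusted p = 0.38), and of *Wapl*, which releases cohesin, in Chronic Drinking mice (-0.12 ± 0.035, adjusted p = 0.23). On the higher side the smallest p in both belonged to *Ehmt2*, a histone H3K9 methyltransferase, with 0.05 ± 0.030 and 0.07 ± 0.030 (adjusted p = 0.59 and 0.43). Between Chronic and Acute Drinking mice the smallest p values were those of *Stag2*, a cohesin subunit (-0.07 ± 0.049), and *Ehmt1*, the partner of *Ehmt2* (0.04 ± 0.034), both with an adjusted p of 0.998.

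Of 23 genes for proteins that bind, process or act below the clustered protocadherins, all were measured and 0 passed. For Acute Drinking 16 of the 23 had a log2 fold change below 0 and for Chronic Drinking 15, against 49.4% and 49% of all genes. At an unadjusted p under 0.05, 2 were lower in Acute Drinking mice, and 2 were lower and 1 higher in Chronic Drinking mice (all genes, 4.45% lower in the first comparison, 5.65% lower and 4.81% higher in the second). *Adam10*, the sheddase that cuts γ protocadherins, had -0.07 ± 0.033 in Acute Drinking (adjusted p = 0.50). *Abi2* of the WAVE complex had -0.08 ± 0.028 in Chronic Drinking mice (adjusted p = 0.29), and *Psen2*, a γ-secretase subunit, had 0.13 ± 0.063 (adjusted p = 0.46). Between Chronic and Acute Drinking mice *Psen2* had 0.15 ± 0.065 and *Abi2* -0.04 ± 0.029, both with an adjusted p of 0.998.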

How the data were processed

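Amygdala RNA of 28 female mice was sequenced in 2 batches. Per the labels and the study's methods, reads were checked with FastQC 0.11.8 and quantified with Salmon 0.14.1 against a GRCm38/mm10 transcriptome, and the authors summarized them by gene with tximport. The deposited values are whole-number counts per gene and mouse with 1 table per batch and no batch adjustment. No column was left out.

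Both tables were matched by Ensembl identifier, ignoring versions. Of 49477 shared genes, 16266 had a mean of at least 10 counts and were kept. Normalized counts are scaled by edgeR's TMM method. Groups were compared with edgeR 4.0.16 (quasi-likelihood test, batch as a covariate, R 4.3.3), 2-sided, where p values were adjusted (Benjamini-Hochberg) across the 16266 genes, with 0.05 as the threshold. Single members were also tested by exact permutation within batches. Relations over mice used 100000 permutations of mice within group and batch. Of these tests, only the edgeR comparison of Chronic Drinking with Water was also run on simulated counts, and its outcome is not given here.

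The members, gene lists and tests were chosen with earlier results of these data known. In full were described the 3 members with the smallest p in each direction of each comparison, the highest and lowest member of each cluster, the 5 C-type genes and *Pcdhgb7*, and of the other lists the smallest p in each direction, *Ctcf* and *Smchd1*. One gene that this rule names is not reported here. *Pcdhb2*, *Kit*, *Bcl2l2*, *Lmtk2*, *Myh10*, *Aph1a*, *Sgip1* and *Etfdh* were chosen after their values were seen.

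Total counts set the counting error. Labels do not tie same-numbered mice to a shared litter or day. Alternatives were DESeq2 1.42.0, ComBat-seq (sva 3.50.0), limma 3.58.1, other normalizations and filters, each batch alone, only the 2 groups compared, a replicate block, GC content and length offsets, 2 surrogate variables and leaving out each mouse. Those for the interaction and the cluster sums were added after seeing the data.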

Additional observations from a re-analysis of the deposited data

Results flagged for a closer look

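In 69 groups of 9 or 10 mice, 1 for each drinking group in 20 members described in full and in the 3 cluster sums, the highest or lowest mouse was compared with the rest of its group by Dixon's test on log2 deviations from the batch mean, and 4 mice stood apart, where chance gives about 1 in 20. For *Pcdha8*, 1 Water mouse (number 1) lay 1.46 above its batch mean, with 106.6 normalized counts, and the other Water mice lay between -0.60 and 0.13. For *Pcdhb21*, 1 Water mouse (number 42) lay at -0.69 with 26.8 normalized counts, and the others between -0.07 and 0.47. For *Pcdhgc5*, 1 Water mouse (number 5) lay at -0.23 and the others between -0.04 and 0.09, and 1 Chronic Drinking mouse (number 1) lay at -0.17 and the others between -0.04 and 0.10. The same Chronic Drinking mouse had the highest *Pcdhgc4* value of its group.

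In *Pcdhgc3* and *Pcdhgc4* every Chronic Drinking mouse of the first batch lay, on the log2 scale, on the opposite side of the Water mean of its batch from every Chronic Drinking mouse of the second batch. Such a split was looked for only in the members described in full, and its share over all genes was not counted. The interaction of batch with Chronic Drinking was -0.22 on the log2 scale for *Pcdhgc3* and 0.83 for *Pcdhgc4*, and neither passed the threshold after adjustment over all genes in edgeR (adjusted p = 0.72 for both).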

How the results depend on the processing

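Alternatives were 14 other settings and leaving out each of the 28 mice. Acute Drinking called 0 members in all of them, and so did Chronic against Acute Drinking. Over all genes these comparisons also called few, at most 30 of 16266 (with ComBat-seq) and at most 1. For Chronic Drinking against Water 1 member, *Pcdhgb7*, was called with DESeq2 and batch as a covariate and 1 with ComBat-seq followed by DESeq2, and leaving out 1 mouse gave 0 to 1. Genes called in all numbered 36 and 97 there, and 2 to 6 without 1 mouse. Members at an unadjusted p under 0.05 numbered 2 in the first batch alone for Acute Drinking, 2 in the first and 7 in the second batch for Chronic Drinking, and 5, 3 and 2 in the first batch, the second batch and with 2 surrogate variables for Chronic against Acute Drinking. Leaving out 1 mouse gave 2 to 7, 3 to 7 and 1 to 3 in these comparisons, and a median over members of -0.05 to -0.02, -0.06 to -0.03 and -0.02 to 0.01. Without 1 mouse, 1106 to 1920 of all 16266 genes had an unadjusted p under 0.05 for Acute Drinking and 1232 to 2165 for Chronic Drinking. The count over all genes also moved for Chronic against Acute Drinking. Of the 21 β genes 18 to 20 were below 0 in Chronic Drinking mice without any 1 mouse, and with a mean of at least 100 counts, which leaves 10 β genes, 10 were below 0. Without 1 mouse 6 to 10 of the 14 α genes (median -0.048 to 0.011) and 9 to 15 of the 22 γ genes (median -0.019 to 0.0062) were below 0 in Chronic Drinking mice. The γ sum of Chronic Drinking mice differed by -2.62% in the first batch alone. Leaving out 1 mouse gave, for Acute and Chronic Drinking, -2.91% to -0.467% and -1.61% to 0.813% for the α sum, -5.28% to -3.44% and -7.84% to -6.02% for β, and -0.921% to 0.14% and -0.0104% to 1.17% for γ. The interactions, refitted with RLE normalization, GC content and length offsets, a mean of at least 100 counts and without each mouse, called 0 members. For Chronic Drinking the first of these settings gave 2 to 3 members at an unadjusted p under 0.05, where 1004, 983 and 791 of the genes tested had one. Without 1 mouse there were 3 to 6 such members, and 640 to 1476 of all 16266 genes.

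Signs turned for the following log2 fold changes. In the first batch alone *Pcdha3* had -0.0135, *Pcdhgc3* 0.10, *Pcdhgc4* -0.29 and *Pcdhac2* -0.0451 for Chronic Drinking, *Pcdhac1* 0.0813 for Acute Drinking and *Pcdhga5* -0.0532 for Chronic against Acute Drinking. In the second batch alone *Pcdhac1* had 0.0015 for Chronic and *Pcdhgc5* -0.0026 for Acute Drinking. *Pcdhac1* for Chronic Drinking had 0.0058 with limma-voom and 0.00761 with GC content and length offsets. *Pcdhac2* had 0.00082 with limma-voom and 0.0032 with surrogate variables for Acute Drinking, and for Chronic Drinking -2.6e-05 with DESeq2, -0.0069 with ComBat-seq, -0.0011 with only the 2 groups compared, -0.000255 with a mean of at least 100 counts and -0.015 with surrogate variables. Without 1 mouse, signs turned for *Pcdhac1* (-0.0660 to 0.0313 for Acute, -0.0443 to 0.0215 for Chronic Drinking), *Pcdhac2* (-0.0239 to 0.00956 and -0.0138 to 0.0140) and *Pcdhgc5* (-0.0189 to 0.0277 and -0.0370 to 0.00670). The cause was not tested.

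Same-numbered mice did not deviate together: 16 pairs correlated from -0.35 to 0.34, 4 of them over 0.1, and 1 of 17 mice correlated best with its own number. With a replicate block the counts at an unadjusted p under 0.05 were 5, 4 and 1 (1390, 1675 and 780 of all 16266 genes). The medians were -0.03, -0.04 and -0.02, and 0 members were called (0, 3 and 0 of all genes). The block with GC content and length offsets gave *Pcdhac1* 0.0131 for Acute and 0.0090 for Chronic Drinking, and 4, 4 and 1 members at such a p (1157, 1054 and 695 of all genes). Counting error was widest for genes of few counts, such as *Pcdhb2* with a mean of 34.75 (SD of 0.24 on the log2 scale from counting alone, 0.33 measured within group and batch).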

Other observations

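Pairs of members with the most alike or opposite deviations over the 28 mice, picked after their values were seen, lay both within and between clusters. *Pcdhb22* and *Pcdhgb1* had r = 0.70, *Pcdhb2* and *Pcdhb15* 0.69, and *Pcdhb16* and *Pcdhb21* 0.65. *Pcdhgb2* and *Pcdhgc4* had r = -0.67, and *Pcdhga9* and *Pcdhgc4* -0.62. Over 54 pairs of neighbouring genes of 1 cluster the median r was 0.11, against 0.019 over the 294 pairs of an α and a β gene, 0.028 over the 308 pairs of an α and a γ gene and 0.081 over the 462 pairs of a β and a γ gene. Genes of the α and of the γ cluster share constant exons, so their quantified values are not independent of each other, and the part of this in the correlations was not tested.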
